A study of Mus musculus with 6 samples.

Results

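The 47 genes described here encode proteins that license and fire replication origins, carry the replication fork, supply deoxynucleotides or switch these genes on and off at the start of S phase. They are the MCM, ORC and GINS subunits with Cdc6, Cdt1, Gmnn, Mcm10 and Cdc45, the sliding clamp and its loader, 8 polymerase and primase subunits, Fen1, Lig1, Rpa1 and Rpa2, 4 enzymes of deoxynucleotide supply, both E cyclins and 5 E2F factors. Each was taken by its gene symbol from the count tables, which list 54838 genes. All 47 had enough reads to be tested, among 13601 tested genes. RNA was sequenced from B16F10 cells, a pigmented mouse melanoma line grown in serum-containing medium, in a group of 3 samples treated with DMSO and a group of 3 treated with GSK126 at 10 µM. GSK126 inhibits EZH2, the subunit of Polycomb repressive complex 2 that methylates lysine 27 of histone H3, and DMSO is the usual solvent for it. The series title concerns lipid metabolism and how sensitive this line is to EZH2 inhibition, and the only contrast is GSK126 against DMSO. For the treatment time, no value is given in the sources used here. No label says that replicates came from different cultures, and the p-values then reflect only how these samples varied, which may be technical variation.

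Replication starts in G1, when the origin recognition complex (ORC), Cdc6 and Cdt1 load the MCM helicase onto DNA, and geminin (Gmnn) later blocks Cdt1 so that no origin is loaded again. In S phase, Cdc45 and the GINS complex join MCM to form the active helicase, primase and polymerases copy the DNA behind it, and the PCNA clamp holds the polymerases in place. Cyclin E with its kinase and the activating E2F factors turn on many of these genes as cells enter S phase, while the atypical factors E2F7 and E2F8 turn them down again.

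E2F factors bind promoters at short GC-rich motifs, so the promoters of these genes were searched for the letters TTTCCCGC, TTTCGCGC, TTTGCCGC and TTTGGCGC on both strands, allowing copies to overlap. The windows were RefSeq's 300 bases per start site, 250 before it and 50 after it, on GRCm38.p6. A window was held for 38 of the 47 genes, and 16 of those 38 (42.1%) had at least 1 copy. Over all windows the motif was in 744 of 32851 (2.26%), and over the tested genes with a window in 466 of 9579 (4.86%). Among the replication genes called lower with GSK126 (below), 3 of the 6 with a window had a copy (Cdt1, Mcm3 and Mcm6), and among those not called 13 of 32 (40.6%). Below are 150 bases before the start site for 5 genes, picked after their values were seen, to show promoters with and without the motif in genes with and without a call. Capitals mark the motif, and each stretch ends at the base before the RefSeq start site. Mcm6 (chr1:128359706-128359855, minus strand) was called lower and has 3 copies, 2 of them overlapping in the longer run of capitals. Pola1 (chrX:93632156-93632305, minus strand) was not called and has 1 copy. E2f3 (chr13:29986064-29986213, minus strand) was not called and has 1 copy. Orc6 (chr8:85299482-85299631, plus strand) was called lower and Rrm1 (chr7:102441545-102441694, plus strand) was not, and neither has a copy in its window. A match to these letters is a description of the sequence, and binding was not measured.
Mcm6: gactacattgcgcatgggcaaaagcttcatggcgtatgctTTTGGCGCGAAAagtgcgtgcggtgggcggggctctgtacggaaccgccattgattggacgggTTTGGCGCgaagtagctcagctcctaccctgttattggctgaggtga
Pola1: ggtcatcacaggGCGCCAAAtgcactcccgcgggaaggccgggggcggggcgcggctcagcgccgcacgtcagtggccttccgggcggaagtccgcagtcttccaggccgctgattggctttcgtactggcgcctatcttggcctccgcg
E2f3: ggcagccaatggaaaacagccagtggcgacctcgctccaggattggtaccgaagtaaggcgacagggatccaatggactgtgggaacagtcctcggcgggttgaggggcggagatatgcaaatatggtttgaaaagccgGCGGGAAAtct
Orc6: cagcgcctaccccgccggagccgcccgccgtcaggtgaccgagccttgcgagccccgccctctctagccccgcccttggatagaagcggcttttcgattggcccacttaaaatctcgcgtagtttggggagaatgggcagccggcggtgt
Rrm1: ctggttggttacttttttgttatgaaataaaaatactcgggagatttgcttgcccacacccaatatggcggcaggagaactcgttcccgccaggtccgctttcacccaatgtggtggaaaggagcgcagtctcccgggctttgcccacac

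The libraries held 13594939 to 14713373 reads in genes, with 18889 to 19267 genes detected in each. Ezh2, the gene of the drug's target, had 189 ± 4.84 CPM (a gene's count scaled by its library's total; SD, n = 3) with DMSO and 193 ± 3.47 with GSK126 (log2 fold change 0.03, SE 0.04, adjusted p = 0.669, edgeR's quasi-likelihood test). An inhibitor of enzyme activity need not alter this mRNA, so the gene does not check the labels. All 7 pigment cell markers were expressed, with a summed level of 21369 to 22574 CPM with DMSO and 22772 to 23945 with GSK126. Singly, 2 of the 7 were not called by edgeR at adjusted p below 0.05, and the others were, where 11.1% of all tested genes were called. Of 5 leukocyte markers, 3 (Cd3e, Adgre1, Itgam) were at 0 in every library and the summed level was at most 1.12 CPM. The endothelial markers Cdh5 and Kdr and the epithelial marker Krt5 were also at 0, and the 5 fibroblast markers summed to 22.7 to 25.6 CPM with DMSO and 17.1 to 21.8 with GSK126. The part of these shifts in the results was not tested. In a principal component analysis, GSK126 replicate 3 lay far from both other GSK126 samples on a component with 18.8% of the variance, and results it decides are given without it.

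Of the 47 replication genes, 7 were lower with GSK126 by the test and most others had small values in the same direction. The 7 were Mcm3, Mcm6, Orc2, Orc6, Cdt1, Pole and Rpa2, which fell by 13.8% to 22.9%. The 47 genes together took 0.657%, 0.649% and 0.640% of the reads in DMSO replicates 1 to 3 and 0.603%, 0.609% and 0.593% in GSK126 replicates 1 to 3. All 3 GSK126 shares lay under all 3 DMSO shares. The median log2 fold change of the 47 was -0.16, against -0.00 over all tested genes, and 38 of the 47 had a value below 0, where 50.1% of all tested genes did. In these bulk samples, fewer cells in S phase and less of each RNA per cell cannot be told apart.

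By edgeR's quasi-likelihood test, with adjusted p below 0.05 over all 13601 genes, 7 of the 47 (14.9%) were lower and 0 were higher. Over all tested genes 11.1% were called, 5.18% as lower and 5.87% as higher. The 47 genes were chosen with earlier results of these data known, so their shares beside those of all genes are only a description. At an unadjusted p below 0.05, 25 of the 47 were lower and 1 was higher. Over all 13601 tested genes 3735 were under that p, 1955 of them higher. DESeq2 called the same 7 lower and 0 higher. The groups did not overlap in 31 of the 47, with GSK126 lower in 30 (63.8%) and higher in 1. Over all tested genes 34.4% had groups that did not overlap, 16.8% with GSK126 lower and 17.6% with GSK126 higher. Leaving out DMSO replicate 1, 2 or 3 gave 0, 1 and 1 lower calls among the 47, and leaving out GSK126 replicate 1, 2 or 3 gave 1, 3 and 7. Lower calls over all tested genes also became fewer in these fits, at 1.81%, 1.98% and 2.40%, then 2.38%, 2.83% and 4.37%, in place of 5.18%. Only 4 of the last 7 were among the first 7. Without GSK126 replicate 3 the calls of Cdt1 (log2 fold change -0.35, adjusted p = 0.059), Orc6 (-0.31, 0.064) and Mcm3 (-0.29, 0.066) ended. Of the 47 genes, 0 were called in all 6 fits without 1 library. The number with a value below 0 was 38 to 40 of 47 in those fits.

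**Figure D1:**
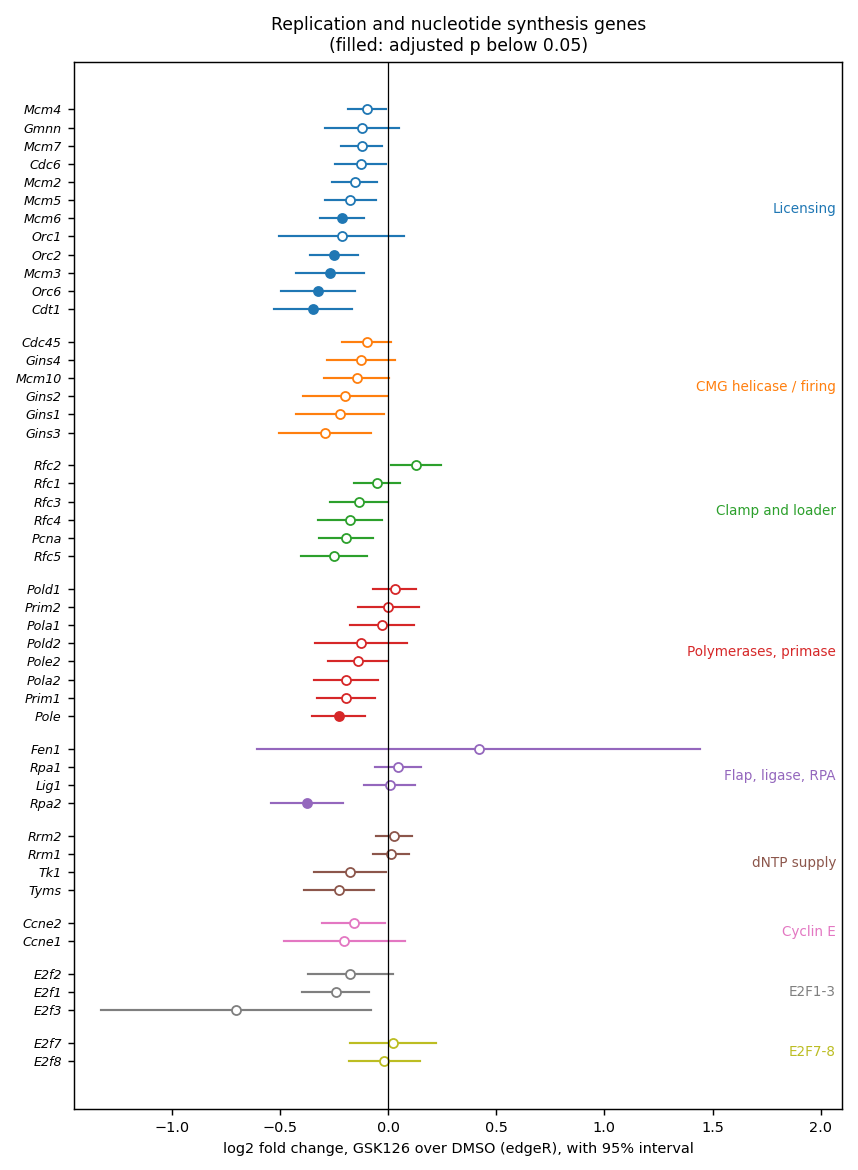
log2 fold change of each of the 47 genes (GSK126 over DMSO, edgeR, n = 3 per group) with its 95% interval, grouped and coloured by role. Filled points mark the 7 genes with adjusted p below 0.05, and most other points also lie left of 0, while Fen1 and E2f3 have the widest intervals.

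The licensing genes held most of the calls: 5 of 12 fell (41.7%, against 5.18% of all tested genes). All 12 had a value below 0, where 50.1% of all tested genes did, and their median log2 fold change was -0.19. The groups did not overlap in 10 of the 12, with GSK126 lower (83.3%, against 16.8% of all tested genes). Cdt1, the loading factor that geminin restrains, fell the most of the licensing genes. Cdt1 (chr8:122568015-122573554, plus strand, GRCm38) had 73.7, 66.1 and 67.0 CPM with DMSO and 50.2, 58.1 and 54.3 with GSK126. The highest GSK126 sample stayed under the lowest DMSO sample. Its log2 fold change was -0.35 (SE 0.08, adjusted p = 0.032, edgeR), a fall of 21.3% in the fitted level. The call ended in 5 of the 6 fits without 1 library, with an adjusted p of up to 0.104 without DMSO replicate 1.

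Of the ORC subunits, which mark origins and recruit the other loading factors, Orc2 and Orc6 fell. Orc2 (chr1:58462771-58505109, minus strand) had 162, 165 and 162 CPM with DMSO and 136, 132 and 144 with GSK126. Every GSK126 sample was under every DMSO sample, and the DMSO values were close together. Its log2 fold change was -0.25 (SE 0.05, adjusted p = 0.019, edgeR). The call ended in 5 of 6 fits without 1 library (adjusted p up to 0.078, without DMSO replicate 2). Orc2 shares 1150 exonic bases with Nif3l1 on the other strand, and the 2 genes summed still gave -0.27 (SE 0.04, adjusted p = 0.012). Orc6 (chr8:85299632-85308278, plus strand) had 60.4, 52.4 and 54.2 CPM with DMSO and 44.5, 45.3 and 43.5 with GSK126. All GSK126 values were lower, and they varied less than those with DMSO. The log2 fold change was -0.32 (SE 0.07, adjusted p = 0.033), and the call ended in all 6 fits without 1 library (adjusted p up to 0.092, without GSK126 replicate 1). Orc6 shares 171 exonic bases with Vps35, a retromer gene with more reads. Vps35 itself had a log2 fold change of 0.14 (adjusted p = 0.077), and the 2 summed gave 0.07 (adjusted p = 0.359). With 21883 reads for Vps35 against 4218 for Orc6, this sum mostly follows Vps35. It cannot show whether Orc6 holds reads of Vps35. Orc1, the largest ORC subunit, had 31.5, 31.6 and 29.6 CPM with DMSO and 22.6, 25.6 and 31.6 with GSK126. GSK126 replicate 3 was at the DMSO level and the groups overlapped (log2 fold change -0.21, SE 0.12, adjusted p = 0.313). The value for Orc1 was -0.36 without GSK126 replicate 3 (adjusted p = 0.060) and -0.11 without GSK126 replicate 1 (adjusted p = 0.578).

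The MCM2-7 ring is the core of the replicative helicase, and all 6 subunits were lower in every GSK126 sample than in any DMSO sample. Over all tested genes 16.8% had groups apart in this direction. Mcm6 (chr1:128331590-128359664, minus strand) had 384, 400 and 394 CPM with DMSO and 336, 353 and 327 with GSK126. Its log2 fold change was -0.21 (SE 0.04, adjusted p = 0.025, edgeR), and the call ended in 4 of 6 fits without 1 library (adjusted p up to 0.096, without DMSO replicate 2). Mcm3 (chr1:20802968-20820312, minus strand) had 323, 358 and 304 CPM with DMSO and 261, 279 and 280 with GSK126. DMSO replicate 2 was the highest of these, and the groups did not overlap. The log2 fold change of Mcm3 was -0.27 (SE 0.07, adjusted p = 0.045), and the call ended in 5 of 6 such fits (adjusted p up to 0.127, without GSK126 replicate 1). The other 4 subunits were not called. Mcm2 averaged 654 ± 10.8 CPM with DMSO and 587 ± 26.0 with GSK126 (SD, n = 3; log2 fold change -0.16, adjusted p = 0.067) and was called without GSK126 replicate 3 (-0.18, adjusted p = 0.042). Mcm5 went from 247 ± 13.6 to 219 ± 3.39 CPM (-0.17, adjusted p = 0.071), Mcm7 from 252 ± 6.29 to 232 ± 3.87 (-0.12, adjusted p = 0.098) and Mcm4 from 237 ± 1.78 to 221 ± 2.64 (-0.10, adjusted p = 0.141). The log2 fold changes of the 6 subunits thus ran from -0.27 to -0.10. Of the remaining licensing genes, Cdc6, the ATPase that loads MCM with ORC, had a log2 fold change of -0.13 (adjusted p = 0.155). Geminin had -0.12 (95% interval -0.29 to 0.05, adjusted p = 0.334), with groups that overlapped.

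**Figure D2:**
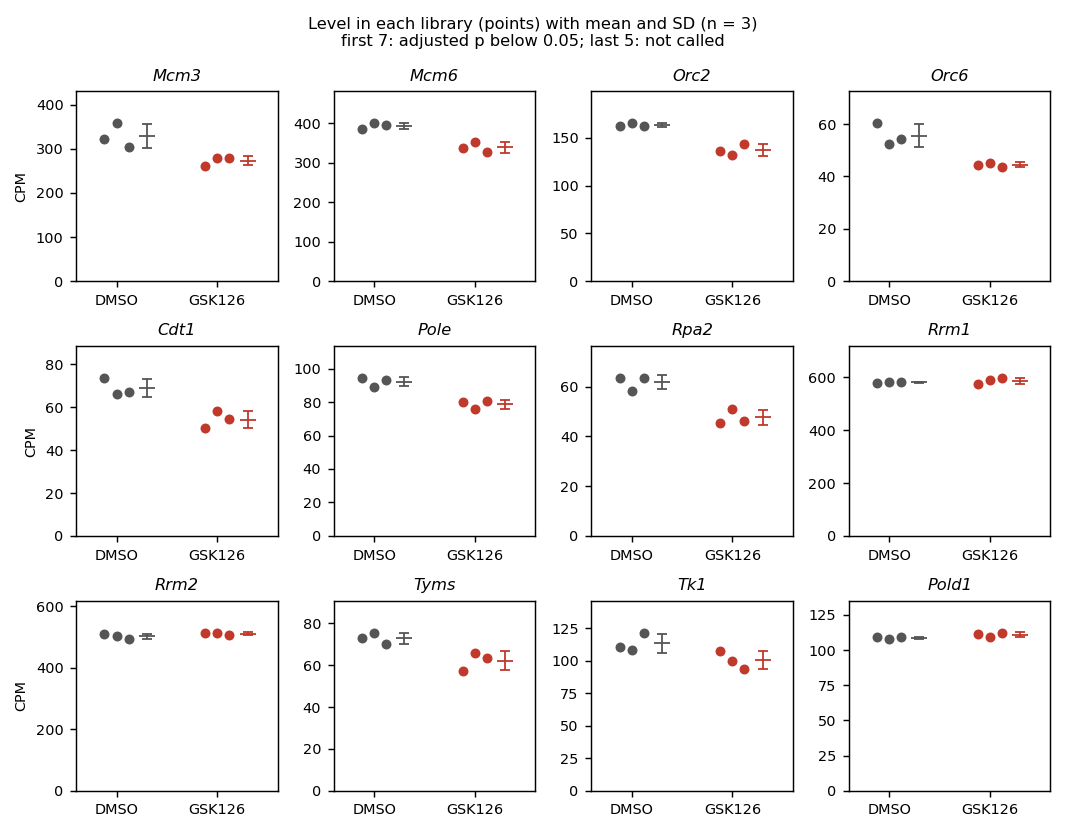
CPM of 12 genes in each library (points, replicates 1 to 3 from left to right within a group), with the mean and SD (n = 3) beside them and every axis starting at 0. The 7 called genes are separated between groups, from Mcm3 (304 to 358 against 261 to 280) to Rpa2 (58.5 to 63.6 against 45.6 to 51.1), while Rrm1, Rrm2 and Pold1 overlap between groups.

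Among the 6 genes that turn loaded MCM into a working helicase, all had a value below 0 (median -0.17), where 50.1% of all tested genes did. The groups did not overlap in 5, with GSK126 lower (83.3%, against 16.8% of all tested genes). By edgeR 0 of the 6 were called, while 3 had an unadjusted p below 0.05 (3735 of 13601 over all tested genes). Gins3, a subunit of the GINS ring, had 32.5, 38.7 and 32.7 CPM with DMSO and 27.3, 28.1 and 29.5 with GSK126. GSK126 was lower throughout, and DMSO replicate 2 was the highest sample (log2 fold change -0.29, SE 0.09, adjusted p = 0.083, edgeR). Gins1 had 17.9, 19.2 and 18.6 CPM with DMSO and 16.3, 16.7 and 14.7 with GSK126, again without overlap (log2 fold change -0.22, SE 0.09, adjusted p = 0.146). Gins2 had a log2 fold change of -0.20 (adjusted p = 0.169) and shares 2758 exonic bases with Gse1, which has more reads. Summed with Gse1 it gave 0.15 (adjusted p = 0.142), a value that mostly follows Gse1. Gins4 had -0.12 (adjusted p = 0.283). Mcm10, which stabilises the helicase at firing, had -0.15 (adjusted p = 0.188), or -0.08 without DMSO replicate 1, and Cdc45 had -0.10 (adjusted p = 0.239).

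Of the clamp and clamp loader genes 0 of 6 were called by edgeR, and 4 had an unadjusted p below 0.05, of which 1 was higher. Over all 13601 tested genes 3735 were under that p, 1955 of them higher. Pcna, the sliding clamp, went from 275 ± 6.22 to 240 ± 14.7 CPM (SD, n = 3) without overlap between the groups (log2 fold change -0.19, SE 0.05, adjusted p = 0.063). A processed copy, Pcna-ps2, carried 153 to 164 CPM with DMSO and 132 to 139 with GSK126, and reads of a gene and a near-identical copy may be split between them. Pcna-ps2 alone had -0.23 (adjusted p = 0.027), and the reads of Pcna with its copies gave -0.21 (SE 0.05, adjusted p = 0.034), past the threshold. Adding these copies was chosen after the data were seen. Rfc5, a small loader subunit, had 73.5, 65.0 and 72.7 CPM with DMSO and 58.6, 60.4 and 58.6 with GSK126, without overlap (log2 fold change -0.25, SE 0.07, adjusted p = 0.053). It shares 499 exonic bases with Wsb2, and the 2 summed gave -0.06 (adjusted p = 0.363). With more reads (23130 against 5464 for Rfc5), Wsb2 weighs most in this sum. Rfc4 had -0.18 (adjusted p = 0.118). It shares 194 exonic bases with Eif4a2, which has more reads, and the sum gave -0.16 (adjusted p = 0.078). Rfc3 had -0.13 (adjusted p = 0.185) and Rfc1, the large subunit, had -0.05 (adjusted p = 0.494). Rfc2 was the only gene of the 6 with a value above 0. It went from 108 ± 3.42 to 118 ± 3.77 CPM, higher in all 3 GSK126 samples (log2 fold change 0.13, adjusted p = 0.144).

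Among the 8 polymerase and primase genes, 1 fell (12.5%, against 5.18% of all tested genes). A value below 0 was found in 6 (75%, against 50.1% of all tested genes), and the median log2 fold change was -0.13. Pole, the catalytic subunit of the leading-strand polymerase epsilon (chr5:110286306-110337474, plus strand), had 94.4, 88.9 and 93.4 CPM with DMSO and 80.1, 75.7 and 80.4 with GSK126. The groups were apart by more than their own spread (log2 fold change -0.23, SE 0.05, adjusted p = 0.036, edgeR). Its call ended in 5 of 6 fits without 1 library (adjusted p up to 0.123, without DMSO replicate 1). Pole2, the second epsilon subunit, had -0.14 (adjusted p = 0.184). Prim1, the catalytic subunit of primase, went from 152 ± 2.90 to 133 ± 8.89 CPM without overlap (log2 fold change -0.20, adjusted p = 0.074) and was called without GSK126 replicate 1 (-0.25, adjusted p = 0.043). Prim2, the other primase subunit, stood at 74.5 CPM in both groups (SD 4.37 and 1.12, n = 3; 95% interval of the log2 fold change -0.14 to 0.14). Pola2 had -0.19 (adjusted p = 0.098) and Pola1, the catalytic subunit of polymerase alpha, -0.03 (adjusted p = 0.825). Pold1 and Pold2 of the lagging-strand polymerase delta had 0.03 (adjusted p = 0.677) and -0.12 (adjusted p = 0.418), and both overlapped between groups. Pold2 was at -0.05 without DMSO replicate 3 and -0.06 without GSK126 replicate 3. Within the alpha-primase complex, the 2 subunits with values near 0 were Pola1 and Prim2, and their difference from Pola2 and Prim1 was not tested.

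Single-stranded DNA behind the helicase is coated by the RPA trimer, and its middle subunit Rpa2 fell by 22.9%, the most among the 7 called genes. Rpa2 (chr4:132768332-132778752, plus strand) had 63.6, 58.5 and 63.5 CPM with DMSO and 45.6, 51.1 and 46.4 with GSK126. GSK126 replicate 2 was the highest of its group and still under every DMSO sample. The log2 fold change was -0.37 (SE 0.07, adjusted p = 0.019, edgeR), and the call ended in 3 of 6 fits without 1 library (adjusted p up to 0.074, without DMSO replicate 1). Rpa1, the large subunit, was at 215 ± 9.37 CPM with DMSO and 222 ± 3.19 with GSK126, a log2 fold change of 0.05 (95% interval -0.06 to 0.15, adjusted p = 0.562). The intervals of Rpa2 (-0.54 to -0.21) and Rpa1 do not meet, though a test between the 2 genes was not made. Lig1, the ligase that seals Okazaki fragments, had 0.01 (95% interval -0.11 to 0.12, adjusted p = 0.949).

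Fen1, the flap nuclease that trims Okazaki fragments, varied more between replicates than any other of the 47 genes. It had 115, 44.2 and 41.3 CPM with DMSO and 110, 106 and 53.3 with GSK126. High and low samples were present in both groups, and the highest DMSO sample was 2.79 times the lowest. The log2 fold change of 0.42 (SE 0.44, adjusted p = 0.579) had a 95% interval from -0.61 to 1.44. With 1 library left out it ran from 0.17 (without DMSO replicate 3) to 1.06 (without DMSO replicate 1), and Fen1 was called in none of these fits. Fen1 shares 130 exonic bases with Tmem258, which stayed at 24.1 to 31.6 CPM in the 6 libraries. E2f3, an activating E2F, was uneven in the other group: 67.6, 71.8 and 72.5 CPM with DMSO and 49.0, 56.7 and 24.5 with GSK126. All GSK126 samples were lower, with replicate 3 far under the other 2. With all libraries the log2 fold change was -0.70 (SE 0.27, adjusted p = 0.139), and without GSK126 replicate 3 it was -0.42 with an adjusted p of 0.029. In the other 45 genes the highest replicate of a group was at most 1.40 times the lowest.

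**Figure D3:**
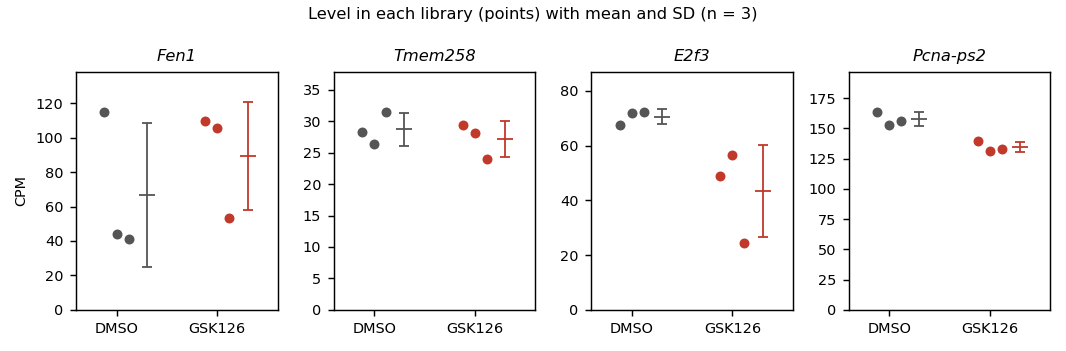
CPM in each library (points) with mean and SD (n = 3 per group) for Fen1, its exon-sharing neighbour Tmem258, E2f3 and the Pcna copy Pcna-ps2. Fen1 splits into high samples (106 to 115 CPM) and low samples (41.3 to 53.3 CPM) in both groups while Tmem258 does not, and E2f3 is lowest in GSK126 replicate 3 at 24.5 CPM.

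Of the 4 genes for deoxynucleotide supply 0 were called by edgeR, and 2 had an unadjusted p below 0.05 (3735 of 13601 over all tested genes). Ribonucleotide reductase, which makes deoxynucleotides from ribonucleotides, showed no difference past the spread between replicates, with narrow intervals. Rrm1, its large subunit, was at 577 to 583 CPM with DMSO and 574 to 598 with GSK126 (log2 fold change 0.02, 95% interval -0.07 to 0.10, adjusted p = 0.822). Rrm2, the small subunit that is made in S phase, was at 502 ± 8.43 and 512 ± 3.86 CPM (0.03, 95% interval -0.06 to 0.11, adjusted p = 0.661). Both intervals leave out a log2 fold change of -0.21, the smallest fall among the 7 called genes. Tyms, which makes thymidylate from deoxyuridylate, had 72.8, 75.6 and 70.0 CPM with DMSO and 57.3, 65.7 and 63.7 with GSK126. These groups did not overlap, and the log2 fold change was -0.23 (SE 0.07, adjusted p = 0.083). Tk1, the salvage kinase for thymidine, had -0.17 (adjusted p = 0.162), also without overlap.

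The regulators at the G1/S boundary gave 0 calls among 7 genes by edgeR, with 3 at an unadjusted p below 0.05. Over all 13601 tested genes 3735 were under that p. E2f1, an activating E2F, had 77.9, 84.5 and 80.4 CPM with DMSO and 63.7, 69.7 and 71.9 with GSK126. Every GSK126 sample was lower (log2 fold change -0.24, SE 0.07, adjusted p = 0.058, edgeR), and without GSK126 replicate 3 the gene was called (-0.28, adjusted p = 0.049). E2f2 had -0.17 (adjusted p = 0.231), or -0.11 without GSK126 replicate 2. In all 3 activating E2F genes the groups did not overlap, with GSK126 lower, as in 16.8% of all tested genes. The repressors E2f7 and E2f8 had 0.02 (95% interval -0.17 to 0.22) and -0.02 (-0.18 to 0.15). Cyclin E1 (Ccne1) had -0.20 (adjusted p = 0.324) with overlapping groups, and this moved to -0.32 without DMSO replicate 1 (adjusted p = 0.109) and to -0.11 without DMSO replicate 3. Cyclin E2 (Ccne2) had -0.16 (adjusted p = 0.152), and summed with Ints8, with which it shares 609 exonic bases, 0.01 (adjusted p = 0.944). That sum mostly follows Ints8, which had more reads.

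Per length, in the authors' FPKM, the genes spanned a wide range with DMSO, from 2.51 (E2f7) to 135 (Rrm2). Below Rrm2 came Pcna at 78.1 ± 1.55, Mcm2 at 72.9 ± 1.36, Mcm6 at 67.4 ± 1.31, Mcm4 at 58.8 ± 0.475 and Mcm3 at 48.9 ± 4.22 FPKM (SD, n = 3). Rrm1 at 46.0 ± 0.257 and Mcm5 at 45.1 ± 2.62 FPKM differed from each other by less than the spread of Mcm5. Among the ORC subunits, Orc2 was at 34.7 ± 0.443 FPKM, Orc6 at 11.7 ± 0.915 and Orc1 at 6.99 ± 0.285. The GINS ring, whose subunits act in equal number, ranged from 4.13 ± 0.187 FPKM (Gins2) to 36.0 ± 1.97 (Gins4). The called genes ran from Pole at 6.71 ± 0.212 FPKM to Mcm6, so calls were found at low and high levels.

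**Figure D4:**
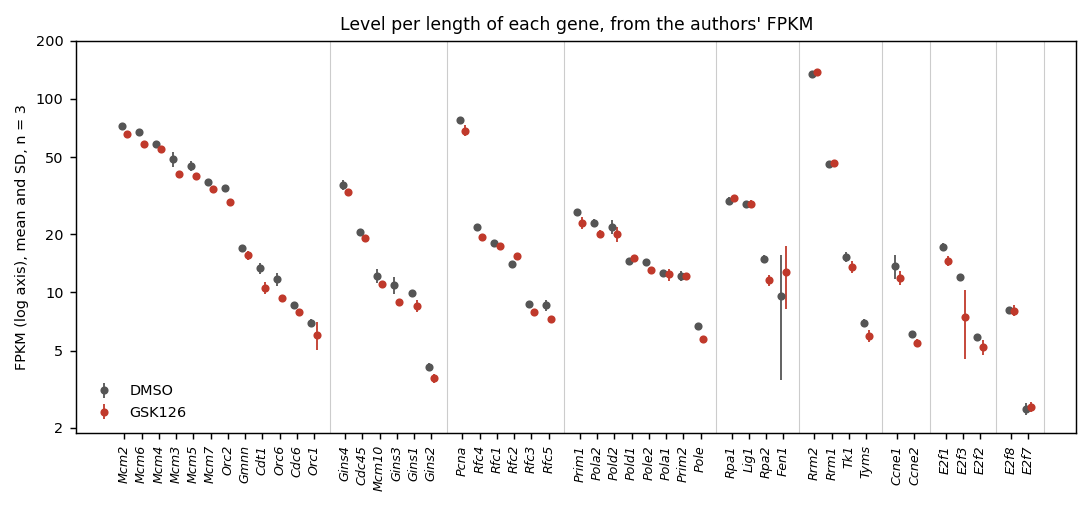
Mean FPKM with SD (n = 3) of each of the 47 genes on a log axis, DMSO in grey and GSK126 in red, with vertical lines between roles. The spread between genes, from E2f7 at 2.51 to Rrm2 at 135 FPKM with DMSO, is much wider than the difference between the groups for any gene.

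Beyond the 47, 4 further lists of genes from the same processes were read in the same fit, 91 genes in all, each tested. They held 2 higher and 19 lower calls (23.1% called, against 11.1% of all tested genes), with a median log2 fold change of -0.13. These lists too were chosen with earlier results of these data known, so the shares are only a description. Among 13 other licensing and firing genes, 1 fell and 0 rose (7.69% called, against 11.1% of all tested genes, 5.18% as lower). At an unadjusted p below 0.05, 0 were higher, and DESeq2 called 0 higher. The gene that fell was Mcmbp, which binds MCM subunits outside DNA (113 ± 1.70 to 95.1 ± 5.06 CPM, log2 fold change -0.25, adjusted p = 0.029, edgeR). Among 25 other fork and chromatin replication genes, 3 fell and 0 rose (12% called, against 11.1% of all tested genes, 5.18% as lower). At an unadjusted p below 0.05, 2 were higher, and DESeq2 called 0 higher. Uhrf1, which carries DNA methylation through replication, fell in all GSK126 samples (404 ± 10.1 to 338 ± 7.33 CPM, -0.26, adjusted p = 0.010). The other 2 were Dscc1 of the alternative clamp loader (-0.34, adjusted p = 0.037) and Ssrp1 of the FACT histone chaperone (-0.20, adjusted p = 0.034). DESeq2 did not call Dscc1 (adjusted p = 0.067).

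Of 27 other genes of nucleotide synthesis, 9 fell and 1 rose (37.0% called, against 11.1% of all tested genes), and the median log2 fold change was -0.20. The CTP synthase Ctps had 91.5, 97.7 and 95.4 CPM with DMSO and 68.1, 65.9 and 64.7 with GSK126, far apart between groups (-0.52, SE 0.05, adjusted p = 0.002, edgeR). Ppat, the first committed enzyme of purine synthesis, fell from 111 ± 8.14 to 78.3 ± 1.54 CPM (-0.50, adjusted p = 0.005). Summed with Paics, which shares exons with it and has more reads, it gave -0.31 (adjusted p = 0.011). Atic, which completes the purine ring, fell from 213 ± 5.28 to 168 ± 6.48 CPM (-0.34, adjusted p = 0.006). Dctd, the deoxycytidylate deaminase that feeds thymidylate synthesis, had 26.3, 48.3 and 24.7 CPM with DMSO and 12.6, 15.7 and 17.2 with GSK126. DMSO replicate 2 was far above the others (-1.13, SE 0.27, adjusted p = 0.040), and the call ended in 4 of 6 fits without 1 library (adjusted p up to 0.118, without GSK126 replicate 1). Dtymk, the thymidylate kinase, fell by 20.1% (-0.32, adjusted p = 0.030). The other 4 lower calls were Gart, Cad, Nme1 and Shmt1, listed after their values were seen. Shmt1 summed with Smcr8, an exon-sharing gene with more reads, gave 0.01 (adjusted p = 0.954), a value that mostly follows Smcr8. Nme1 summed with Gm20390 gave -0.22 and lost its call (adjusted p = 0.080). Rrm2b, the reductase subunit that p53 induces and that works outside S phase, rose from 27.7 ± 1.08 to 34.1 ± 1.98 CPM (0.30, adjusted p = 0.046), a call that ended in all 6 fits without 1 library.

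Among 26 other genes of E2F, RB and G1/S control, 6 fell and 1 rose (26.9% called, against 11.1% of all tested genes). The D cyclins, which with Cdk4 and Cdk6 release E2F from RB, held the 2 largest falls of this list. Ccnd1 had 214, 211 and 214 CPM with DMSO and 97.6, 106 and 93.2 with GSK126, a fall of 53.6% (log2 fold change -1.11, SE 0.06, adjusted p = 1.78e-04, edgeR). Ccnd2 fell from 911 ± 22.7 to 626 ± 14.6 CPM (-0.54, adjusted p = 6.31e-04). Cdk6 fell from 44.4 ± 3.09 to 32.9 ± 1.56 CPM (-0.43, adjusted p = 0.016), and Tfdp1, the DNA-binding partner of the E2F factors, from 143 ± 4.61 to 114 ± 3.24 (-0.32, adjusted p = 0.008). Rb1 rose from 40.1 ± 1.05 to 51.0 ± 4.29 CPM (0.35, adjusted p = 0.033), but summed with Lpar6 and Rcbtb2, with which it shares exons, it had 0.16 (adjusted p = 0.228). The other 2 lower calls were Cdc25a and Skp2, named after their values were seen. Of the 21 calls in these lists, 7 were kept in every one of the 6 fits without 1 library: Uhrf1, Ctps, Ppat, Atic, Tfdp1, Ccnd1 and Ccnd2.

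**Figure D5:**
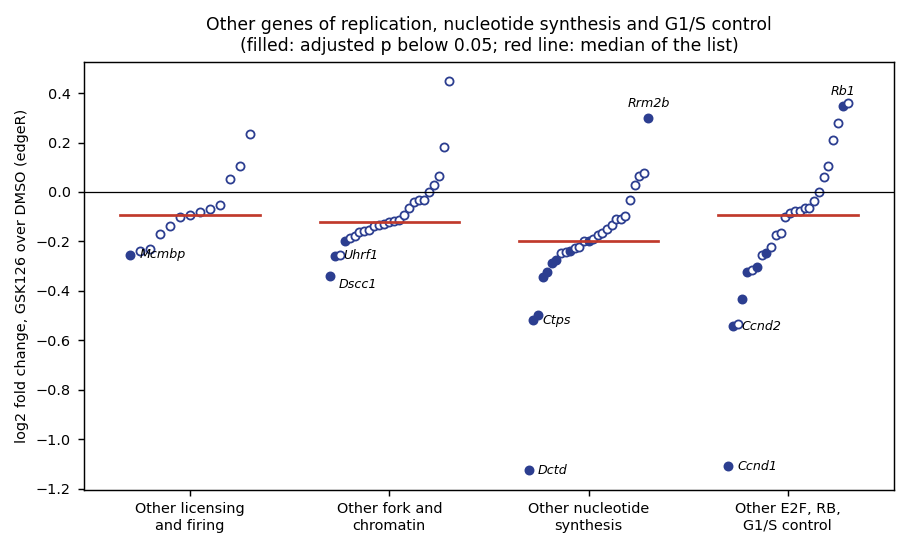
log2 fold change (GSK126 over DMSO, edgeR, n = 3 per group) of the 91 genes in 4 further lists, ordered within each list, with filled points for adjusted p below 0.05 and a red line at the list's median. All 4 medians lie below 0 (-0.09, -0.12, -0.20 and -0.09 from left to right), and Dctd and Ccnd1 stand lowest, near -1.1.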

How the data were processed

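RNA sequencing of 6 B16F10 samples (3 DMSO, 3 GSK126) used CASAVA 1.8, HISAT2 and the builds GRCm38.p4 and mm10, per the submitters' processing notes. Not given in the sources used here are the counting tool, its strand setting and the annotation release, so a gene and an overlapping partner cannot be told apart by strand. The authors deposited whole-number counts per gene, with GRCm38 positions per the file headers, and FPKM values for the same libraries.

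Samples were grouped by treatment label. The deposited counts went into edgeR 4.0.16 (R 4.3.3): filterByExpr, which kept 13601 genes holding at least 99.87% of each library's reads, TMM scaling and the quasi-likelihood F test with the group as its only term. P-values were adjusted by Benjamini-Hochberg over those genes (threshold 0.05). Standard errors and 95% intervals came from each gene's own F statistic. Separately, the biological coefficient of variation, a single value for the whole data set, was 0.119. CPM uses TMM-scaled totals. The authors' FPKM served only to compare levels between genes. Replicates of a group differed by more than counting noise (chi-square over its degrees of freedom 7.60 to 14.3). The test was tested on simulated data first.

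Exon sharing means exonic bases in common, in GENCODE M21, with a gene having at least 10% as many reads. Alternatives were RLE scaling, DESeq2 1.42.0, no filter on low counts, each library left out, a replicate block, exon-sharing genes left out, and reads summed with exon-sharing partners or pseudogene copies. Both kinds of sums were chosen after seeing the data, and the other alternatives before. Genes were named by a rule: every called gene of the 47 and the 8 largest changes among those not called with values per library, and up to 5 called genes of each further list with the largest change. The members and lists were chosen with earlier results of these data known. Promoter windows came from RefSeq (GRCm38.p6).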

Additional observations from a re-analysis of the deposited data

How the results depend on the processing

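The direction of the genes called lower was kept under RLE scaling, DESeq2, no filter on low counts, the replicate block and each left-out library, and many of the calls were not. Of the 47 replication genes, 3 were called lower with no filter on low counts (23352 genes tested), 0 with the replicate block and 0 to 7 with 1 library left out. Over all tested genes the lower calls were 5.18% in the design used and 1.87%, 1.31% and 1.81% to 4.37% under these settings. RLE scaling and DESeq2 each called the same 7. Same-numbered replicates did not deviate together (correlations 0.01, 0.01 and -0.06), and differently numbered ones had -0.07 to 0.05. These values cannot show whether same-numbered samples shared a culture or day, and the labels do not say. With the block, 17 of the 47 were lower at an unadjusted p below 0.05, with no share of all tested genes at that p to set beside it. At an adjusted p below 0.05, 0 of the 47 were called. Of all genes tested, 230 were called higher and 178 lower at that adjusted p. For the further lists, no filter left 0 lower licensing, 1 lower fork, 5 lower nucleotide, 0 higher nucleotide and 0 higher G1/S genes. The replicate block left 0, 0, 3, 0 and 0 of these and 3 lower G1/S genes. The ranges with 1 library left out were 0 to 1, 1 to 4, 3 to 6, 0 and 0 to 1 for these and 3 to 5 for lower G1/S genes. DESeq2 gave 0 higher nucleotide genes and 2 lower fork genes (without Dscc1), and leaving out exon-sharing genes gave 0 higher G1/S genes. Mcm7, Cdc45, Rfc4 and Lig1 also share exons with other genes, and summed with them kept their signs (-0.11, -0.095, -0.16 and 0.011). Signs turned only in genes near 0 or summed with a partner. Prim2 gave -0.0029 with no filter and -1.8e-04 without exon-sharing genes. With 1 library left out, Pola1 ran from -0.090 to 0.011, Prim2 from -0.047 to 0.035, Lig1 from -0.027 to 0.036, E2f7 from -0.029 to 0.076 and E2f8 from -0.069 to 0.023. Summed with partners, Ccne2 gave 0.0083, Gins2 0.15, Orc6 0.068 and Shmt1 0.0082. In each of these the partner had more reads than the gene and weighs more in the sum. The cause of these changes was not tested. Depth was not low for any of the 47 genes, since the least-read had 1454 reads over the 6 libraries.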
